A study of Mus musculus with 45 samples.

Results

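A+T+ mice carry the APP/PS1 transgene together with the tau transgene, and the comparison described here sets those kept on a typical Western diet (TWD) against those kept on standard chow (STD). The members were chosen by group label alone and number 10 of the 45 mice in the series: 6 A+T+ mice on TWD and 4 on STD. Every animal was a female of the C57Bl/6J strain, and both diet groups carry the same alleles: a chimeric mouse/human APP with the Swedish mutation and a mutant human PS1, both driven by the mouse prion protein promoter, and human tau P301L driven by the CaMKII promoter, which is active in forebrain excitatory neurons. They were bred by crossing heterozygous mice of the 2 transgenic lines, and the other genotypes, used only for contrast, comprise 12 wild-type (AwTw), 12 tau (AwT+) and 11 APP/PS1 mice (A+Tw). TWD contained 21% fat by weight, 0.15% cholesterol and 35% sucrose, STD contained 5% fat and 0% cholesterol, and the diets ran from 7 to 13 months of age. Hippocampal polyA RNA was sequenced, and each value below is a deposited log2-scale value of a gene in a mouse after variance stabilization and batch correction by the authors. The comparison asks what the diet does to hippocampal expression when β-amyloid and tau pathology are present together.

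Overproduction of APP with mutant PS1 leads to β-amyloid plaques, around which microglia gather and switch on genes that depend on the receptor Trem2 and its adaptor Tyrobp. Mutant tau forms intraneuronal aggregates. Diets rich in fat and sugar can cause insulin resistance, and insulin acts in brain cells largely through PI3K and Akt, which restrain the FoxO transcription factors. Microglial survival and phagocytosis also draw on PI3K-Akt, downstream of Trem2.

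The genotype labels could be checked on 2 mouse genes. App lay between 15.26 and 15.80 in the 10 A+T+ mice and between 14.29 and 14.86 in the mice without the APP/PS1 transgene, and Prnp, whose promoter drives that transgene, lay between 14.65 and 14.95 against 13.28 to 13.98. Mapt, the mouse tau gene, was between 12.64 and 13.20 in A+T+ mice and did not separate carriers of human tau from the others. Wfs1, a marker of CA1 pyramidal neurons, was between 10.91 and 11.42 and Calb1, of dentate granule cells, between 9.22 and 9.82, so markers of both hippocampal fields were present. Mouse AM245 on TWD had the lowest mean correlation with the other 9 (0.944, against 0.967 to 0.978), and mouse AM286 on TWD had far lower choroid plexus transcripts than the other 9.

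None of 15897 genes passed the test for diet in A+T+ mice. In the limma fit with Benjamini-Hochberg adjustment 0 genes (0%) had an adjusted p below 0.05, the smallest adjusted p being 0.384. At an unadjusted p below 0.05 there were 409 genes (2.57% of those tested), 180 of them higher on TWD (1.13%) and 229 lower (1.44%). That share was below the 0.05 which this threshold passes on average when no gene differs. The values of the 4 STD and the 6 TWD mice did not overlap for 84 genes, 35 higher on TWD (0.22%) and 49 lower (0.308%). Genes named below for a small p or for separation were picked from all 15897 by those values. Neither is thus support for a diet effect. The median standard error of a diet difference was 0.17 on the log2 scale and the median half-width of its 95% interval was 0.34. In a typical gene a fitted difference smaller than that did not reach even an unadjusted p of 0.05. The adjusted test over 15897 genes needs a larger difference, so true differences above 0.34 can also have been missed. Bulk tissue was measured, so fewer cells of a type and less RNA per cell cannot be told apart in any value below.

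Slc26a10, a member of the SLC26 family of anion transporters, had the smallest adjusted p. In STD mice it stood at 6.39, 6.41, 6.43 and 6.47, and in TWD mice at 7.12, 7.28, 7.29, 7.30, 7.31 and 7.57. The groups were far apart relative to the spread within each (SD 0.04, n = 4, and 0.14, n = 6), and the fitted difference was 0.88 ± 0.18 (SE) with a limma adjusted p of 0.384. It was 0.96 in batch 0, with 4 TWD and 2 STD mice, and 0.76 in batch 1, with 2 TWD and 2 STD mice. Every A+T+ value by batch in this report rests on those few mice. The 4 STD mice were the group that differed from the rest of the series: mean Slc26a10 was 6.43 in them and between 6.83 and 7.19 in the 6 groups of the other genotypes, whereas A+T+ mice on TWD averaged 7.31. The diet difference was 0.08 in AwTw, 0.17 in AwT+ and -0.38 in A+Tw mice, and the A+T+ difference exceeded that of A+Tw mice by 1.26 with a limma adjusted p of 0.205. The 250 bases before its RefSeq start, printed because this gene heads the comparison, lie at chr10:127180583-127180832 of GRCm38.p6 on the minus strand. Capitals mark a CCAAT box, read as ATTGG on the strand shown, a motif that 33.8% of 32851 RefSeq windows of this length hold on either strand.
Slc26a10: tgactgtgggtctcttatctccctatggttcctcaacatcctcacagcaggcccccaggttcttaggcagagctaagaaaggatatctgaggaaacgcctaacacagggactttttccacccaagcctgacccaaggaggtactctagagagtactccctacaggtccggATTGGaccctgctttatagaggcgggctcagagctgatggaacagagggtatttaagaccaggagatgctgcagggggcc

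Among the other genes with non-overlapping groups and higher values on TWD, Dynlt1f, a dynein light chain of a family with near-identical copies between which reads can be split, stood at 4.88, 6.17, 6.32 and 6.56 on STD and between 6.66 and 7.91 on TWD, a difference of 1.17 ± 0.31 (SE). Rtl3, a gene derived from a retrotransposon, stood at 5.27, 5.63, 5.71 and 5.72 on STD and between 5.91 and 6.62 on TWD, a difference of 0.67 ± 0.19. Both Dynlt1f and Rtl3 lay below the median gene of each A+T+ mouse, which was between 8.05 and 8.27. The same held for Slc26a10 above and for Pbx3, Rtl9, Npas4 and Ppara below. Hsf1, the main transcription factor of the heat shock response, was expressed at a higher level, with 8.85, 8.98, 9.04 and 9.15 on STD and 9.23, 9.28, 9.38, 9.46, 9.67 and 9.91 on TWD. Its difference was 0.48 ± 0.15, with 0.52 in batch 0 and 0.50 in batch 1, and the 12 heat shock genes listed had a median difference of 0.07 with 9 positive. Pcdhb6, a clustered protocadherin, differed by 0.61 ± 0.20. Capn3, a calcium-dependent protease (0.56 ± 0.16), the laminin receptor subunit Itga7 (0.54 ± 0.17) and Ccdc137 (0.40 ± 0.13) were among the genes with the smallest p although their groups touched. Apart from Slc26a10, each gene in this paragraph and the next had a limma adjusted p of 0.998.

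Among the genes lower on TWD, Pbx3, a TALE homeodomain transcription factor, had non-overlapping groups in which STD mice stood at 7.18, 7.31, 7.34 and 7.41 and TWD mice at 6.33, 6.34, 6.60, 6.73, 6.78 and 7.00. Its difference was -0.69 ± 0.18 and had the same sign in each of the other genotypes, at -0.48 in AwTw, -0.33 in AwT+ and -0.54 in A+Tw mice. Pcdhgb8, a gamma protocadherin that shares its 3′ exons with its neighbours, so that reads can be split between them, differed by -0.80 ± 0.26. Slc9b2, a sodium/proton exchanger (-0.62 ± 0.22), Fgfbp1, a carrier of fibroblast growth factors (-0.59 ± 0.28), Ntn4, a netrin of basement membranes (-0.57 ± 0.20), and Rtl9 (-0.47 ± 0.14) also had non-overlapping groups. Penk, which encodes the enkephalin precursor, stood at 9.76, 9.96, 10.32 and 10.45 on STD and at 9.19, 9.31, 9.47, 9.50, 9.85 and 9.92 on TWD, so that 2 TWD mice lay above the lowest STD mouse. The Penk difference was -0.58 ± 0.19 in A+T+ mice against 0.24, 0.23 and 0.12 in AwTw, AwT+ and A+Tw mice. Etnppl, an astrocyte enzyme of phosphoethanolamine breakdown, differed by -0.64 ± 0.18, but by -1.03 in batch 0 and -0.14 in batch 1. Slc25a12, the mitochondrial aspartate/glutamate carrier of neurons (-0.57 ± 0.18), Opn3 (-0.46 ± 0.14), the oxygen-dependent prolyl hydroxylase Egln3 (-0.40 ± 0.13) and Rassf8 (-0.37 ± 0.12) completed the lower end.

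**Figure D1:**
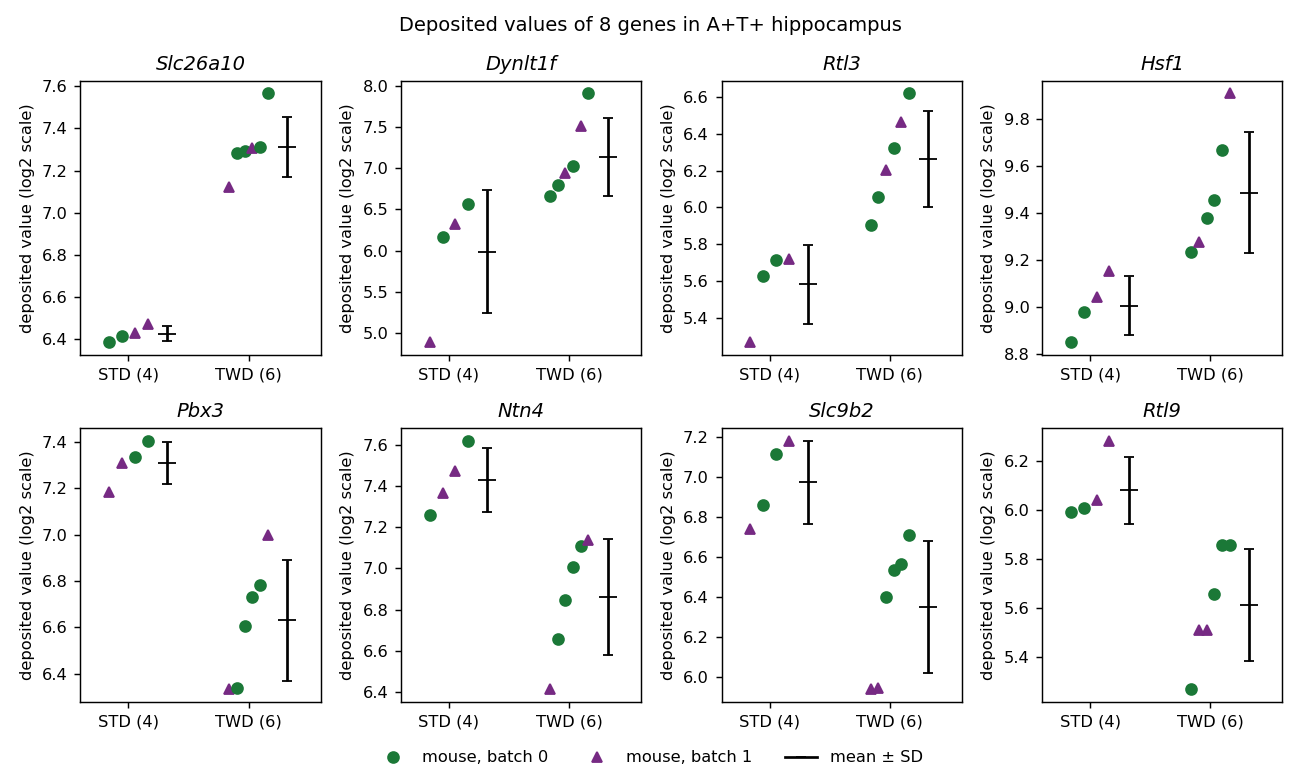
Deposited log2-scale values (y axis) of 8 genes in the 4 STD and 6 TWD A+T+ mice (x axis). Circles are mice of batch 0, triangles mice of batch 1, and the bar is the mean ± SD. The diet groups do not overlap for any of the 8 genes, and Slc26a10 has the tightest STD group, between 6.39 and 6.47.

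Microglial genes at the centre of the study's question had diet differences near 0 in A+T+ mice. Trem2 stood at 9.05, 9.07, 9.31 and 9.36 on STD and at 8.77, 8.84, 9.04, 9.25, 9.42 and 10.01 on TWD. The TWD mice spread to both sides of the STD mice, with AM245 the highest, and the difference was 0.07 (95% interval -0.35 to 0.50, exact permutation p = 0.689). It was -0.20 in batch 0 and 0.50 in batch 1. Tyrobp gave 0.07 (-0.33 to 0.47), the microglial marker Aif1 0.16 (-0.21 to 0.53), the lysosomal protein Cd68 0.12 (-0.25 to 0.48), and Cst7 and Itgax, genes of plaque-associated microglia, -0.04 (-0.46 to 0.37) and -0.08 (-0.50 to 0.35). None of the 25 disease-associated microglial genes had non-overlapping groups. Lpl (-0.31 ± 0.15) was the only one at an unadjusted p below 0.05, where 2.57% of all genes were, Clec7a stood at -0.32 ± 0.25, and the list's median was -0.05 with 7 of 25 positive, at -0.15 in batch 0 and 0.12 in batch 1. The 16 homeostatic microglial genes had a median of -0.03, with P2ry12, a purine receptor of resting microglia, at -0.28 ± 0.31, and the 16 genes of Trem2 signalling a median of 0.05, against -0.01 over all genes.

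In wild-type mice the same diet contrast gave 1487 genes (9.35%) with an adjusted p below 0.05. The smallest limma adjusted p there was 0.0498, so all 1487 lay just under the threshold. In these wild-type mice Trem2, Tyrobp and Aif1 differed by 0.58, 0.55 and 0.56. The microglial lists as a whole differed less there. Their AwTw medians were 0.07 for homeostatic genes (8 of 16 positive), 0.16 for disease-associated genes (16 of 25) and 0.18 for Trem2 signalling (13 of 16). The difference between the 2 diet effects was tested for each gene. For Trem2 the A+T+ effect minus the AwTw effect was -0.51 (95% interval -1.08 to 0.06, limma adjusted p 0.56), and 0 genes passed at an adjusted p below 0.05 against any of the 3 genotypes. At an unadjusted p below 0.05 there were 1001 genes against AwTw (6.3%), 346 against AwT+ (2.18%) and 245 against A+Tw (1.54%). A smaller diet response of microglial genes in A+T+ mice than in wild-type mice did not pass the test.

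The regulatory subunit of PI3K was the gene of the insulin pathway with the clearest value. The paper had reported its gene, Pik3r1, as lower on TWD over all genotypes, with these mice included. The direction here and in the other genotypes is thus not independent of that report. Pik3r1 stood at 10.00, 10.11, 10.32 and 10.49 on STD and at 9.23, 9.59, 9.63, 9.98, 10.04 and 10.08 on TWD, so 2 of the 6 TWD mice reached above the lowest STD mouse. The difference was -0.48 (95% interval -0.90 to -0.05, exact permutation p = 0.0556, limma adjusted p 0.998), at -0.40 in batch 0 and -0.59 in batch 1. Pik3r1 differed in the same direction in AwTw (-0.58), AwT+ (-0.28) and A+Tw mice (-0.44), and the A+T+ effect minus the AwTw effect was 0.11 (-0.46 to 0.67). It was the only one of 26 insulin and PI3K-Akt genes at an unadjusted p below 0.05, a share near the 2.57% over all genes. The list's median was -0.11 with 7 of 26 positive, from Pik3r1 up to Tsc2, a brake on mTOR, at 0.36 ± 0.20. Leaving out 1 mouse moved that median between -0.18 and -0.018, by over 1.5 times without AM279, PM292, AM245, AM260 or PM288. Akt1 stood at -0.20 ± 0.12 and Foxo1 at -0.14 (-0.61 to 0.34). The transcriptional regulators Ep300 and Elf1 gave -0.31 (-0.80 to 0.17) and -0.25 (-0.58 to 0.08), and the autophagy proteins Sqstm1 and Map1lc3b 0.13 (-0.20 to 0.46) and -0.03 (-0.27 to 0.21). App, Mapt, Prnp and Camk2a, the last being the gene whose promoter drives the tau transgene, differed by 0.04, 0.05, 0.08 and 0.01, each with an interval that included 0. Exact permutation p was computed for 16 genes over the 90 assignments of diet within batch, of which the smallest possible p is 0.0111, and 0 of them fell below 0.05.

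**Figure D2:**
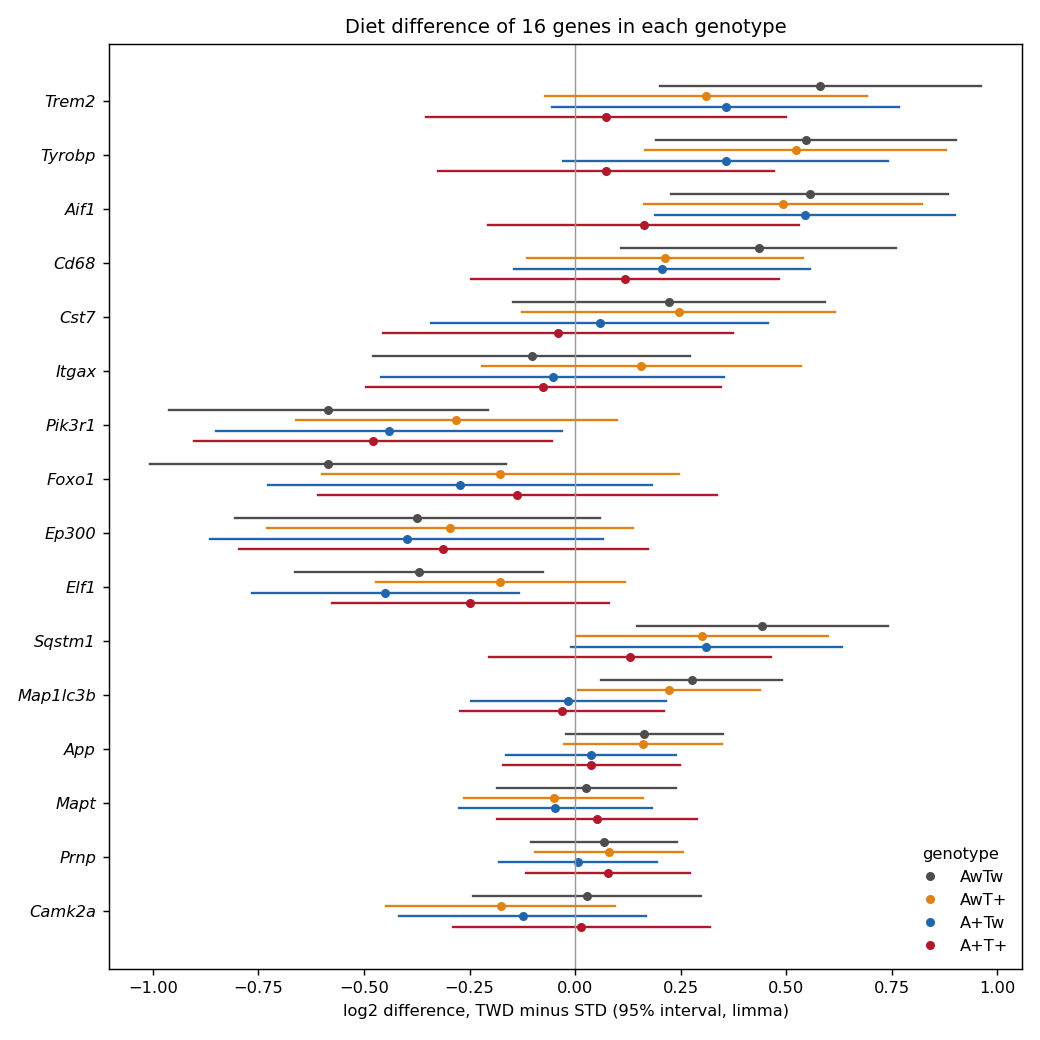
Fitted log2 difference between TWD and STD mice (x axis) of 16 genes (y axis) in each genotype, with its 95% interval from limma. In A+T+ mice only the interval of Pik3r1, from -0.90 to -0.05, leaves out 0.

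Immediate early genes, which neurons switch on within minutes of activity, had mostly positive differences. Of 16 listed, 13 had a positive difference, the median was 0.18, and Fos and Npas4 were at an unadjusted p below 0.05, as were 2.57% of all genes. Leaving out 1 mouse moved the median between 0.057 and 0.23, by over 1.5 times without PM292 or AM245. Npas4 stood at 6.18, 6.20, 6.27 and 6.62 on STD and at 6.42, 6.47, 6.86, 6.92, 6.92 and 6.98 on TWD, with a single STD mouse inside the TWD range, and its difference was 0.44 ± 0.20. Fos differed by 0.62 ± 0.30 and Egr1 by 0.39 ± 0.24. Fos gave 0.71 in batch 0 and 0.61 in batch 1, Npas4 0.36 and 0.48, and Egr1 0.29 and 0.62. The list's median was 0.02 in batch 0 and 0.45 in batch 1, and in the other genotypes it was 0.23 (AwTw), -0.06 (AwT+) and -0.05 (A+Tw). Some of these genes respond to calcium or cAMP through CREB, which binds the cAMP response element. The 250 bases before the RefSeq starts of Fos and Npas4 are printed with each half-site of that element in capitals. The half-site reads TGACG, or CGTCA on the other strand, a motif that 17.8% of such windows hold. The windows lie at chr12:85473640-85473889 on the plus strand for Fos and chr19:4989972-4990221 on the minus strand for Npas4, in GRCm38.p6, and each holds 2 matches.
Fos: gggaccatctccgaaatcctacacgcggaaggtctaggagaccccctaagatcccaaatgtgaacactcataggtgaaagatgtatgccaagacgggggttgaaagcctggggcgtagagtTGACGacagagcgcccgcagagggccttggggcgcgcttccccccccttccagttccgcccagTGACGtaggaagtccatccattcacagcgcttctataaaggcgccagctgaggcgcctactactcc
Npas4: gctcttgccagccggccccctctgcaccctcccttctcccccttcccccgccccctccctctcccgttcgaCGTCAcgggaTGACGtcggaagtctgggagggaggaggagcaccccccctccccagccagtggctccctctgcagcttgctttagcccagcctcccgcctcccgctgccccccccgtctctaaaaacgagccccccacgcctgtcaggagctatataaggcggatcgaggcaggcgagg

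Genes of fat and sterol handling differed modestly. Ppara, the nuclear receptor that turns on fatty acid oxidation, stood at 5.58, 5.90, 5.96 and 6.00 on STD and between 5.07 and 5.73 on TWD, a difference of -0.54 ± 0.22. Its target Cpt1a, which admits long-chain fatty acids to mitochondria, differed by -0.37 ± 0.18. Those 2 were the only ones of 19 fatty acid genes at an unadjusted p below 0.05, beside 2.57% of all genes. The list's median was -0.10 with 5 of 19 positive, at -0.24 in batch 0 and 0.11 in batch 1. It came to -0.0042 without AM278 and -0.0036 without AM286. With the mean standardised value of the choroid plexus genes described below as a covariate it was 0.011. The 19 genes of the cholesterol synthesis list had a median of -0.08 with 5 positive, among them Stard4 at -0.25 ± 0.17 and Fdft1 at -0.12 ± 0.11. Fasn, which makes palmitate, stood at 0.33 ± 0.18 and Nr1h2, the liver X receptor beta, at 0.22 ± 0.12. The mitophagy receptor Optn was the only one of 21 autophagy genes at an unadjusted p below 0.05, at -0.22 ± 0.10.

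Most ribosomal and respiratory chain genes had small positive differences. Of 78 cytosolic ribosomal protein genes 72 were positive, with a median of 0.13, a single difference such as that of Rpl27 being 0.41 ± 0.33 and that of Rps13 0.19 ± 0.16. Of 77 mitochondrial ribosomal genes 63 were positive, with a median of 0.10 and Mrpl36 and Mrpl42 at 0.22 ± 0.11 and 0.21 ± 0.11. Of 42 oxidative phosphorylation genes 34 were positive, with a median of 0.09, Cox5a at 0.17 ± 0.13 and Uqcrc2 at -0.29 ± 0.15. None of these 197 genes was at an unadjusted p below 0.05. The median of the cytosolic ribosomal list was -0.015 in batch 0 and 0.31 in batch 1, and leaving out 1 mouse moved it between 0.024 and 0.20, by over 1.5 times without PM292, AM245, AM260 or AM286. For oxidative phosphorylation the median was 0.044 in batch 0 and 0.12 in batch 1. Members of such lists vary together from mouse to mouse, and the mean standardised value of the cytosolic ribosomal list ranged from -0.58 to 0.30 in STD mice and from -0.65 to 1.29 in TWD mice, so the groups overlapped. The medians in AwTw, AwT+ and A+Tw mice were 0.56, 0.36 and 0.32 for cytosolic ribosomal genes and 0.47, 0.30 and 0.24 for oxidative phosphorylation, each above the A+T+ value. The per-gene test of the difference from AwTw reached an unadjusted p below 0.05 for 0 of the 78 and 1 of the 42. Antigen presentation had a median of 0.11 (10 of 11 positive, Psmb9 at 0.27 ± 0.21) against 0.44, 0.25 and 0.46, and interferon-stimulated genes one of 0.07 (8 of 13 positive, Isg15 at 0.41 ± 0.23 and Irf7 at 0.29 ± 0.23) against 0.42, 0.31 and 0.39. C4b, a complement component made by glia, stood at 0.40 ± 0.23.

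**Figure D3:**
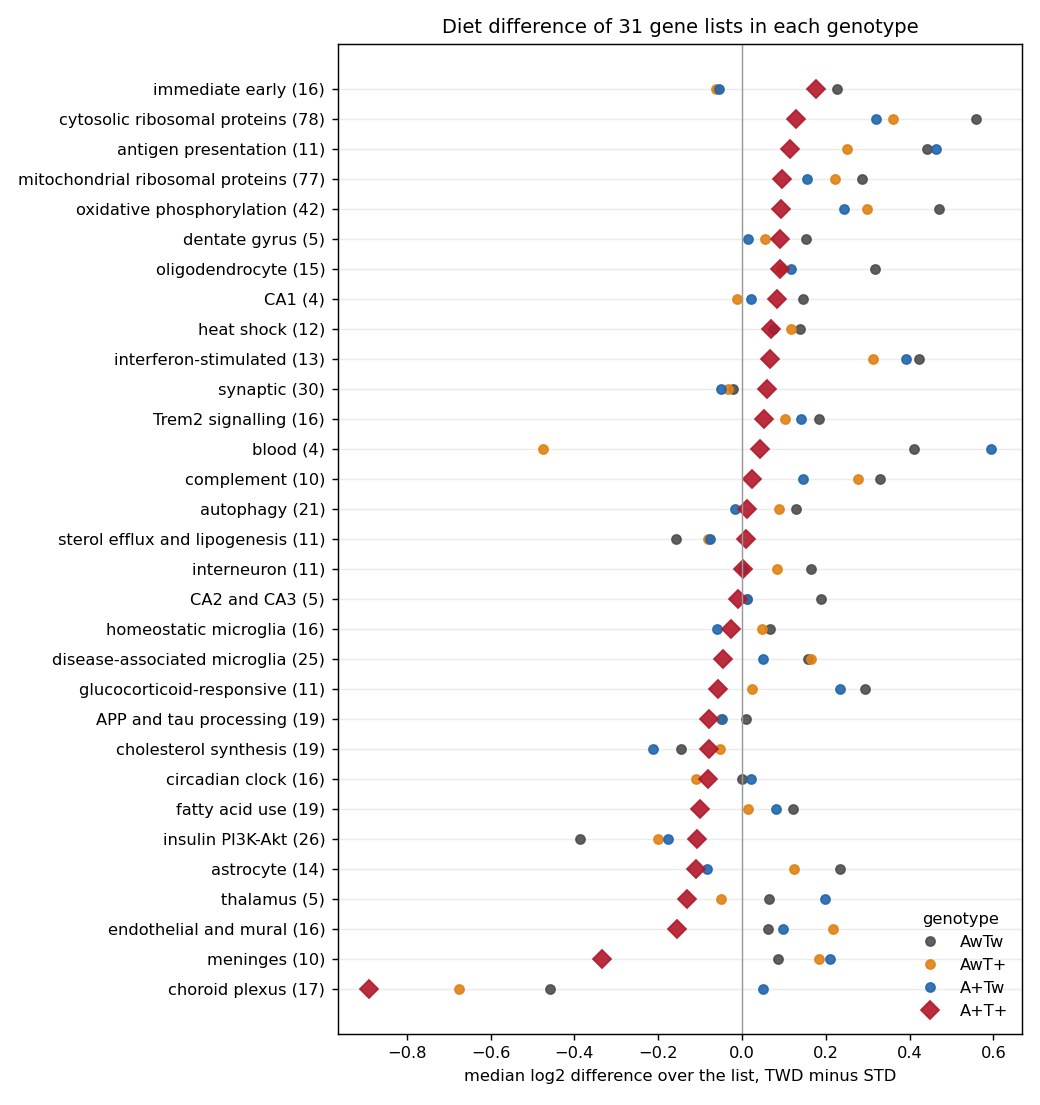
Median log2 difference between TWD and STD mice (x axis) over each of 31 gene lists (y axis, with the number of genes tested), for each genotype. The A+T+ values, red diamonds, lie between -0.16 and 0.18 for every list except meninges at -0.33 and choroid plexus at -0.89.

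The lists with the medians furthest from 0 mark tissue next to the hippocampus. All 17 choroid plexus genes, which are expressed by the epithelium that makes cerebrospinal fluid, had lower fitted values on TWD, from -0.54 to -1.18 with a median of -0.89, and 0 of them was at an unadjusted p below 0.05. The summed level of the list was between 16.31 and 17.46 in STD mice and between 16.03 and 17.33 in 5 of the TWD mice, and 12.41 in AM286. Folr1, the folate receptor of that epithelium, stood at 8.93, 8.99, 9.37 and 9.45 on STD and at 5.93 (AM286), 7.63, 7.98, 8.52, 8.81 and 8.94 on TWD, a difference of -1.18 ± 0.86, and Prlr and Col8a1 at -0.98 ± 0.64 and -0.89 ± 0.62. Without AM286 the list's median was -0.59. In AwTw, AwT+ and A+Tw mice the median was -0.46, -0.68 and 0.05. The mean standardised value of the list was -1.03 in AM286. Values as low occurred in other groups of the series, such as -1.26 in PM271 (A+Tw on STD) and -1.26 in AM308 (AwTw on STD). Of 10 meningeal genes 9 had lower fitted values, with a median of -0.33. Slc6a20a, an amino acid transporter, stood at -0.97 ± 0.47 and the matrix proteoglycan Dcn at -0.48 ± 0.20, both at an unadjusted p below 0.05, and Aldh1a2 at -0.52 ± 0.48. The lowest value of a member in any of the 10 mice was 5.23 for choroid plexus and 5.14 for meninges, against 2.21 over all genes. The part of neighbouring tissue in the other differences was not tested beyond 1 fit, with the choroid plexus score as a covariate. In that fit 0 genes had a limma adjusted p below 0.05. The median of the meningeal list was -0.09 and that of the fatty acid list 0.011.

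Vascular and glial lists had medians within 0.16 of 0. Of 16 endothelial and mural genes 3 were positive, with a median of -0.16, at -0.36 in batch 0 and 0.13 in batch 1. The blood-brain barrier efflux pump Abcb1a differed by -0.30 ± 0.11, the only member at an unadjusted p below 0.05, the tight junction protein Ocln by -0.35 ± 0.18 and the angiopoietin receptor Tek by -0.33 ± 0.17. Of 14 astrocyte genes 3 were positive, with a median of -0.11, the gap junction protein Gja1 at -0.44 ± 0.23 and the glutamate transporter Slc1a3 at -0.24 ± 0.18. Of 15 genes of the oligodendrocyte lineage 12 were positive, with a median of 0.09. Olig2, the transcription factor of that lineage, stood at 8.52, 8.74, 8.75 and 8.87 on STD and between 8.71 and 9.20 on TWD, a difference of 0.29 ± 0.11, and Cspg4, a proteoglycan of its progenitors, stood at 8.34, 8.42, 8.44 and 8.47 on STD and between 8.45 and 9.16 on TWD, a difference of 0.31 ± 0.15. Both were at an unadjusted p below 0.05. Pdgfra, the growth factor receptor that also marks progenitors, stood at -0.39 ± 0.21, the furthest from 0 of the 15. The list's median was 0.06 in batch 0 and 0.37 in batch 1, and 0.14 without AM278 and 0.17 without AM286. The mean standardised value of the lineage list was between -0.20 and -0.04 in STD mice, above 0.46 in 4 TWD mice, -0.11 in AM332 and -0.91 in AM286, the mouse lowest in choroid plexus transcripts.

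**Figure D4:**
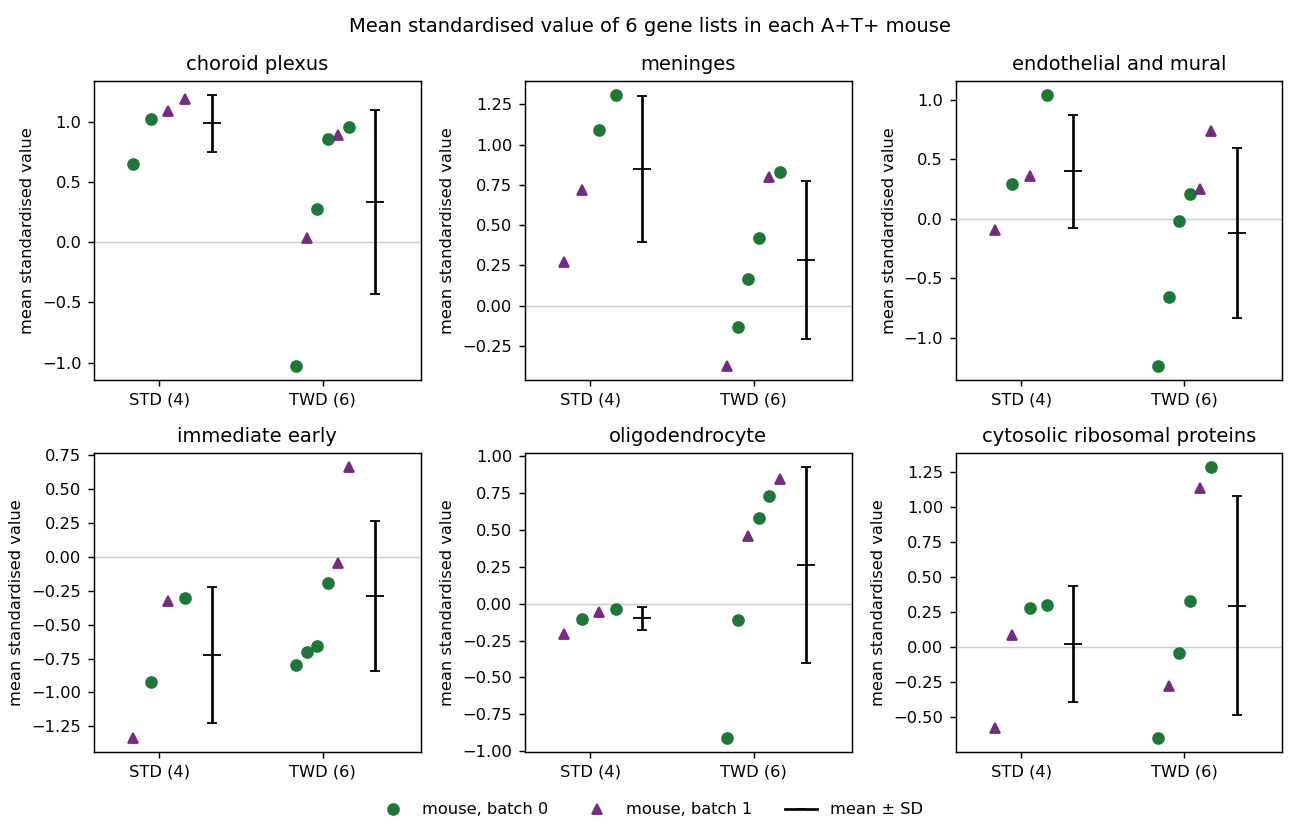
Mean standardised value of 6 gene lists (y axis, in SD units over all mice of the series) in each A+T+ mouse, by diet (x axis). Circles are mice of batch 0, triangles mice of batch 1, and the bar is the mean ± SD. The lowest choroid plexus point, at -1.03, is AM286, and in each of the 6 lists the diet groups overlap.

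Neuronal lists were close to 0. The 30 synaptic genes had a median of 0.06, with Grin1, an NMDA receptor subunit, at 0.27 ± 0.21 and Camk2b at 0.18 ± 0.14, and the 11 interneuron genes a median of 0.00 with Npy at 0.31 ± 0.24. The 5 dentate gyrus genes were all positive with a median of 0.09, of which Dsp, a desmosomal protein of granule cells, stood at 7.90, 7.91, 8.18 and 8.44 on STD and between 8.00 and 9.30 on TWD, a difference of 0.62 ± 0.24 against -0.42 in AwTw mice. The 19 genes of APP and tau processing had a median of -0.08, with the β-secretase Bace1 at -0.15 ± 0.12, and none was at an unadjusted p below 0.05.

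The direction of the A+T+ differences was compared with that in the other genotypes, which share no mice with them. Of the 84 genes with non-overlapping groups, 62 had the same sign in AwTw (73.8%), 58 in AwT+ (69.0%) and 56 in A+Tw mice (66.7%), beside 66.1%, 64.3% and 67.0% over all genes. The same sign in all 3 was found for 36 of the 84 (42.9%) and for 46.9% of all genes. Across the 15897 genes the A+T+ difference correlated with that of AwTw, AwT+ and A+Tw mice at Pearson's r = 0.36, 0.36 and 0.39 and at Spearman's rho = 0.41, 0.38 and 0.42, values across genes that are not independent of each other and share a normalization. Absolute differences were the smallest in A+T+ mice, with a median of 0.11 on the log2 scale against 0.25 in AwTw, 0.14 in AwT+ and 0.15 in A+Tw mice, while the median standard error was 0.17 against 0.15, 0.15 and 0.16. The A+T+ median was thus below the median standard error there, so it does not measure a smaller diet effect.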

How the data were processed

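The authors trimmed and filtered the reads, quantified transcripts with kallisto 0.44.0, kept genes with a mean count above 10, applied the variance-stabilizing transformation of DESeq2 1.22.2 and removed batch with limma 3.38.3. What they deposited is thus 1 log2-scale value per gene and mouse, and counts per mouse were not used here. Batch means were equal for every gene over all mice. The depth of each library cannot be read from such values, so precision rests on the number of mice. Genes were named and placed with GENCODE M21 (mm10).

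One limma 3.58.1 fit with a mean trend held the 8 genotype and diet groups and batch over 45 mice, and p was adjusted over 15897 genes. Counts at an unadjusted p are descriptive. Differences between diet effects were interaction contrasts. For 16 genes diet was also permuted exactly within batch, two-sided. Named genes were those 16, the 10 with the smallest p in each direction, the 5 separated genes with the largest difference in each direction, and the 3 with the smallest p in each of 31 lists; predicted genes are not described, and not every gene by this rule is. Lists are described by counts and medians, with no set test. Members and lists were chosen with earlier results of these data known. Scripts were tested on simulated data. The labels do not give litter or cage, so a litter or cage shared within a diet group cannot be told apart from diet. The p-values measure the spread between the mice sampled, taken as independent.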

Additional observations from a re-analysis of the deposited data

Results flagged for a closer look

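In 222 groups of values (80 genes and 31 list scores, each in 4 STD and 6 TWD mice) the highest or lowest mouse stood apart from the rest by Dixon's ratio in 10, where chance alone flags about 1 group in 20. Of the 10, 6 concern AM245 on TWD, the mouse with the lowest correlation with the others. It was highest for Akt1 (11.7, next 11.41) and Grin1 (13.85, next 13.18), and lowest for Dcn (8.848, next 9.769), Opn3 (4.43, next 5.315), Stard4 (7.306, next 8.09) and Uqcrc2 (10.66, next 11.24). AM260 on TWD was highest for Mrpl42 (9.821, next 9.529) and had the lowest mean standardised value of the synaptic list (-1.043, next -0.2814). AM277 on STD was highest for Rtl9 (6.283, next 6.039) and for the list of APP and tau processing (0.3604, next -0.03281). No difference between the diet effects of A+T+ mice and another genotype passed an adjusted p of 0.05.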

How the results depend on the processing

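The count of genes with an adjusted p below 0.05 was 0 under all 21 alternatives, as was that of each difference from another genotype under the 20 that hold those mice. Of the count of 409 genes at an unadjusted p below 0.05, the filter on low values left 268 of fewer genes tested, the first residual component as a covariate gave 825, and leaving out 1 mouse gave 303 to 750, the highest without PM288 on TWD; the cause was not tested. Genes without overlap numbered 47 after the same filter, 1689 in batch 0 alone and 3741 in batch 1 alone, where fewer mice separate more easily, and leaving out 1 mouse gave 110 (AM266) to 229 (PM288), over 1.5 times the 84 for each mouse but AM266. Of the 16 genes tested by exact permutation 0 passed 0.05, against 1 with no batch strata and 1 after quantile normalization (Pik3r1, p = 0.0429 and 0.0444), and leaving out 1 mouse gave 0 to 2 (Pik3r1 without AM277, and Pik3r1 and Elf1 without PM288).

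Of 80 genes 67 kept their sign under every alternative run for them. Most of the 80 were named for a small p or for separation in these same mice, so a kept sign there is not independent support. Among the genes tested by exact permutation, named whatever their p, only Pik3r1, Aif1, Foxo1, Elf1 and Sqstm1 kept their sign throughout. Values that turned came from genes whose 95% interval included 0. In batch 0 alone they were App -0.036, Camk2a -0.074, Cd68 -0.032, Clec7a 0.040, P2ry12 0.075, Trem2 -0.20 and Tyrobp -0.12. In batch 1 alone they were Cst7 0.22, Ep300 0.082, Itgax 0.25, Map1lc3b 0.19 and Prnp -0.038. With the choroid plexus score as a covariate Camk2a was -0.066 and Mapt -0.010, after quantile normalization Camk2a was -0.069, with the residual component Trem2 was -0.014 and Tyrobp -0.0027, and with A+T+ mice alone Cst7 was 0.0074. Leaving out 1 mouse gave -0.020 to 0.080 for App, -0.044 to 0.11 for Camk2a, -0.18 to 0.052 for Cst7, -0.18 to 0.034 for Itgax, -0.094 to 0.0099 for Map1lc3b, -0.0049 to 0.12 for Mapt, -0.059 (without AM245) to 0.17 for Trem2 and -0.031 to 0.14 for Tyrobp. List medians not covered above ran, with 1 mouse left out, from -0.092 to 0.018 for disease-associated microglia, 0.049 to 0.21 for antigen presentation, -0.015 to 0.13 for interferon-stimulated genes, 0.026 to 0.16 for oxidative phosphorylation, 0.040 to 0.14 for mitochondrial ribosomal proteins, -0.13 to 0.0038 for cholesterol synthesis, -0.19 to -0.047 for astrocytes, -0.26 to -0.086 for endothelium, -0.47 to -0.25 for meninges and -1.08 to -0.59 for choroid plexus. No paired analysis was possible because the labels carry no number that pairs mice across groups.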
